A study of Mus musculus with 12 samples.

Results

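The skin basement membrane was followed here through 9 genes: the laminin chains Lama2, Lama3, Lama4, Lama5, Lamb1, Lamb3 and Lamc1, and the anchoring collagens Col7a1 and Col17a1. They were chosen by symbol and not by a rule on their values, although earlier results of these data were known. All 9 were found among the 55453 genes of the count file and belonged to the 18311 genes with enough counts to be tested. Each had at least 965 counts in every mouse.

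The basement membrane is the thin sheet of matrix on which the basal cells of the epidermis rest and which also wraps blood vessels, Schwann cells, fat cells and muscle fibres. Its laminins are built from an α, a β and a γ chain that join before the protein is secreted, so that a chain counts only as part of a trimer. Laminin-332, which contains the products of Lama3 and Lamb3, is the main laminin under epidermal keratinocytes, where integrin α6β4 and collagen XVII of the hemidesmosome hold the cell to it and collagen VII, in anchoring fibrils, ties it to the dermis. Laminin-511 (Lama5, Lamb1 and Lamc1) lies under the epidermis, hair follicles and vessels, laminin-411 (Lama4, Lamb1 and Lamc1) in vessels, and laminin-211 (Lama2, Lamb1 and Lamc1) around muscle and nerve.

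The samples were the back skin of 12 mice on a C57BL/6 background in 4 groups of 3. The methods describe the KO mice as female and aged 8 to 12 weeks, and the sex and age of the WT mice are not given in the sources used here. Wild-type mice given PBS (WT PBS) or bleomycin (WT BLM) were compared with mice lacking Thy-1 in all tissues (labelled Thy1-knockout) that were given PBS (KO PBS) or bleomycin (KO BLM). Daily injections under the skin held 10 mg/kg of the drug, which scars tissue where it is injected. The methods state injections for up to 14 days and the design text states 21 days of treatment, with skin taken on day 21. Whole pieces of skin were sequenced, so a gene lower in a group may mean fewer cells of a type or less RNA per cell, which cannot be told apart.

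Library totals ran from 26473700 to 38890450 counts. Thy1 itself had 104 to 149.6 CPM (counts scaled to the normalized library size) in WT PBS mice and 231 to 416 in WT BLM mice. The KO PBS mice had 45.6 to 96.9 CPM and the KO BLM mice 84.7 to 128. It was lower in the KO than in the WT mice of each treatment without overlap, yet passed the threshold in neither comparison (log2 fold change −0.75 with an adjusted p of 0.224 for PBS, and −1.69 with an adjusted p of 0.112 for bleomycin), and the part of the gene removed by the knockout allele is not given in the sources used here. The 7 basal keratinocyte markers were present in every mouse, with a mean of 8.48 to 9.71 log2 CPM. A list of 20 genes that are active while hair grows set the libraries apart. It held hair shaft and root sheath genes and the regulators Msx2, Hoxc13 and Dlx3. Its mean was 9.94 to 10.5 log2 CPM in WT PBS, 10.5 in KO PBS mouse 136 and 9.48 in KO BLM mouse 141, and from −0.35 to 6.63 in the other 7 mice. Results that rest on mice 136 and 141 are therefore given with and without them.

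Levels were first compared between the genes per length, as CPM per kilobase of all exons (RPKM) in GENCODE M21. In WT PBS skin Col17a1 stood far above the rest at 140 ± 14.2 RPKM (SD, n = 3). Lamc1 (24.7 ± 3.62) and Lama5 (24.0 ± 0.742) came next, with ranges that overlapped, followed by Lamb1 (20.7 ± 2.46). Lamb3 (11.04 ± 1.004) and Col7a1 (9.01 ± 1.61) overlapped each other, and below them Lama3 (5.95 ± 0.632), Lama4 (3.99 ± 0.544) and Lama2 (2.84 ± 0.410) each had a range of its own. Dividing by the longest transcript placed Lamb1 second at 35.4 ± 4.21 RPKM and Lama4 (7.97 ± 1.09) above Lama3 (6.06 ± 0.643), so the order of those genes depends on the length used.

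In WT skin 5 of the 9 genes passed the threshold after bleomycin, beside 34.0% of all genes tested. Called higher were 4 of them, Col7a1, Lama4, Lamb3 and Lama3 (19.8% of all genes), and called lower was 1, Lama5 (14.1% of all genes). The WT groups did not overlap for 6 of the 9, against 57.0% of all genes. Their median log2 fold change was 0.50, and that of all genes 0.02. In each of the other comparisons none of the 9 passed. The 5 calls rested on few mice, although no direction changed when any 1 mouse was left out. Col7a1 missed the threshold without WT PBS mouse 160 (adjusted p = 0.0556) or 161 (0.0553). Lama5 missed it without WT PBS mouse 159 or 160 or WT BLM mouse 146 or 147 (adjusted p from 0.0508 to 0.0715). Lamb3 missed it without WT BLM mouse 145 or 147 or any WT PBS mouse (0.0660 to 0.0971), and Lama4 without WT BLM mouse 146 or 147 or any WT PBS mouse (0.0596 to 0.0937). Lama3 missed it without WT BLM mouse 145 or 147, any WT PBS mouse, or KO BLM mouse 141 or 143, which enter through the shared estimate of the spread (0.0546 to 0.159).

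**Figure D1:**
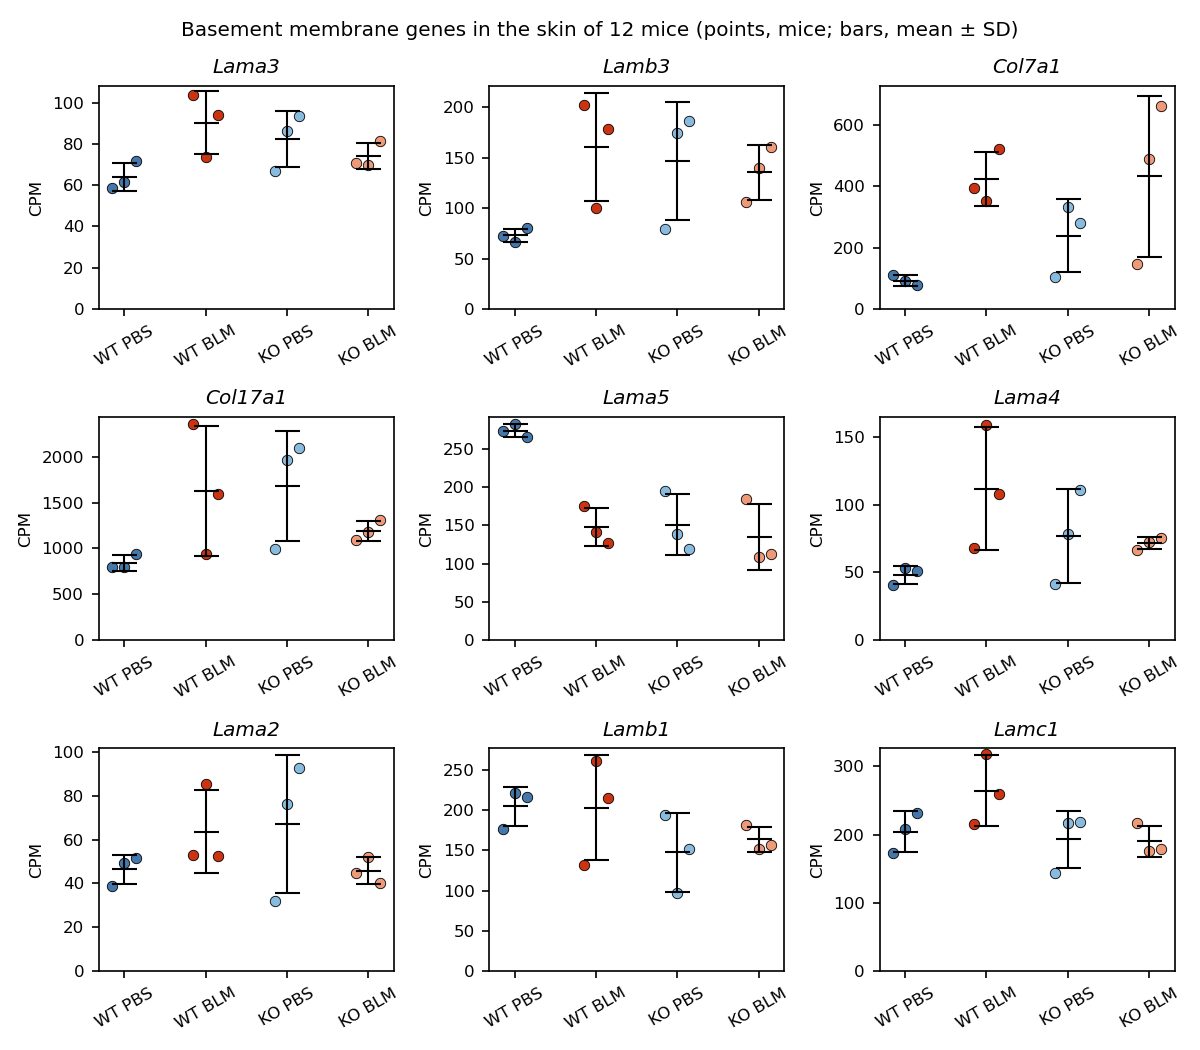
CPM of the 9 genes in each mouse (points) of the 4 groups, with the mean and SD of 3 mice as bars, on axes that start at 0. The WT PBS points lie close together in every panel, and 1 KO PBS mouse lies near them for Col7a1, Lamb3 and Col17a1.

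Of the chains of laminin-332, Lamb3 is the β chain found in no other laminin, and it lies on chromosome 1 (GRCm38, 193207699 to 193343878, plus strand). It read 72.4, 66.7 and 79.9 CPM in the WT PBS mice, 202.5, 100.2 and 178 in WT BLM, 79.1, 175 and 186 in KO PBS, and 106, 140.1 and 160.4 in KO BLM. Every WT BLM mouse was above every WT PBS mouse, and 2 of the 3 KO PBS mice were as high as the WT BLM mice. Lamb3 rose in WT skin by 1.13 ± 0.33 on the log2 scale (SE, adjusted p = 0.0281). In KO skin the fitted difference after bleomycin was −0.11 ± 0.33 (adjusted p = 0.875).

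Lama3, its α chain, lies on chromosome 18 (12333819 to 12583013, plus strand). Its values were 58.8, 61.3 and 71.6 CPM in WT PBS, 103.6, 73.7 and 93.9 in WT BLM, 67.1, 86.4 and 93.6 in KO PBS, and 70.8, 69.99 and 81.3 in KO BLM. The WT groups were narrowly apart, and the KO groups overlapped. Lama3 rose in WT skin by 0.50 ± 0.16 (adjusted p = 0.0384) and differed by −0.15 ± 0.16 in KO skin (adjusted p = 0.609). Without a filter on low counts its adjusted p in WT skin was 0.110.

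The difference between the responses of KO and WT skin to bleomycin was −1.25 for Lamb3 (95% interval −2.28 to −0.21) and −0.65 for Lama3 (−1.16 to −0.15). Neither passed the threshold over all genes (adjusted p = 0.114 and 0.103).

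Col7a1, which encodes the collagen of the anchoring fibrils, had the largest fold change of the 9 genes. It has 119 exons in its longest transcript and lies on chromosome 9 (108953586 to 108984875, plus strand). WT PBS mice had 109.7, 91.8 and 76.5 CPM, and WT BLM mice 394, 352 and 523. KO PBS mice had 104, 333 and 281, and KO BLM mice 147, 489.7 and 663. The WT groups were far apart, whereas each KO group held 1 low mouse, 136 and 141, and 2 high mice.

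The rise of Col7a1 in WT skin was 2.19 ± 0.53 on the log2 scale, or 4.57-fold (adjusted p = 0.0151). In KO skin it was 0.86 ± 0.51 (95% interval −0.28 to 1.99, adjusted p = 0.362). Without mice 136 and 141, KO BLM exceeded KO PBS by 0.91 (adjusted p = 0.0331), and KO PBS exceeded WT PBS by 1.73 (adjusted p = 7.3e-04). In that setting every WT PBS mouse and no KO PBS mouse had a high mean of the hair gene list. Genotype and hair growth therefore cannot be told apart there under PBS. With all mice, the genotypes differed by 0.03 under bleomycin (interval −1.10 to 1.16, adjusted p = 0.977). The hair gene list mean was 5.60 to 9.48 log2 CPM in KO BLM mice and 0.04 to 3.94 in WT BLM mice. With that mean in the model the difference of Col7a1 was 0.99 (adjusted p = 0.358).

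The 250 bases before the start of Col7a1 are shown with those of Lama5, the gene that fell, because these 2 genes moved farthest apart in WT skin. The sequences are from RefSeq on GRCm38.p6, read 5′ to 3′ on the gene's strand, at chr9:108953336-108953585 (plus) and chr2:180225860-180226109 (minus). Capitals mark GGGCGG or its complement CCGCCC, the letters of a GC box.
Col7a1: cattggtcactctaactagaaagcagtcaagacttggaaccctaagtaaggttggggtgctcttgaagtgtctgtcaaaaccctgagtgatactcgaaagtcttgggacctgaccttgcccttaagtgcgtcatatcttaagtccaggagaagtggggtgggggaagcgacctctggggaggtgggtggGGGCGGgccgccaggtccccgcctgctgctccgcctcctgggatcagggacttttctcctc
Lama5: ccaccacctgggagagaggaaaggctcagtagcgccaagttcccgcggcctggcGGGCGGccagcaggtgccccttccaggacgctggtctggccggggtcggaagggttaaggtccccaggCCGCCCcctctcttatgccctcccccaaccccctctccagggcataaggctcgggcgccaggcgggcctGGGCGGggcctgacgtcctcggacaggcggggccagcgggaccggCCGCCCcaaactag
The window of Col7a1 held 1 such match and that of Lama5 held 4. At least 1 match was present in 32.7% of the 32851 RefSeq windows of this length, and in Lamb1 (2 matches) but in none of the windows of Lama2, Lamb3 and Col17a1. The letters TGANTCA of an AP-1 site, which read the same on both strands apart from the N, were in 6.75% of all windows and in none of those of the 6 genes matched. G and C made up 56.4% of the Col7a1 window and 72.4% of the Lama5 window, with a median of 52.4% over all windows. No factor's binding was measured, so these letters only describe the windows.

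Col17a1, the collagen that crosses the basal cell membrane in the hemidesmosome, lies on chromosome 19 (47646344 to 47692094, minus strand). Its values were 795, 794.5 and 943 CPM in WT PBS, 2357, 941 and 1593 in WT BLM, 993, 1967 and 2095 in KO PBS, and 1095, 1179 and 1311 in KO BLM. WT BLM mouse 146 lay within the WT PBS range and the other 2 far above it. The difference of 0.95 ± 0.35 in WT skin missed the threshold (adjusted p = 0.0570). It passed with DESeq2 (0.93, adjusted p = 0.0295), without mouse 146 (1.23, adjusted p = 0.0292) and without KO PBS mouse 136 (0.94, adjusted p = 0.0213). In KO skin Col17a1 was lower after bleomycin in each mouse than the KO PBS mean, by −0.50 ± 0.35 (adjusted p = 0.435).

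Lama5, the α chain of laminin-511, lies on chromosome 2 (180176373 to 180225859, minus strand) and was the only 1 of the 9 genes called lower in WT skin. It read 274, 282 and 265 CPM in WT PBS mice and 175.6, 142 and 126 in WT BLM mice. In KO PBS mice it read 195, 139 and 119, and in KO BLM mice 184.5, 108 and 112. No mouse of the other 3 groups reached the WT PBS range. Lama5 fell in WT skin by 0.89 on the log2 scale (SE 0.24, adjusted p = 0.0216), to 0.540 of its WT PBS level. The KO PBS mice were lower than the WT PBS mice by a similar fitted amount, −0.86 ± 0.24, which did not pass over all genes (adjusted p = 0.204) but did with DESeq2 (−0.86, adjusted p = 0.0306). KO mice differed by −0.16 ± 0.24 after bleomycin (interval −0.69 to 0.37).

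Lama4, the α chain of vascular laminin-411, lies on chromosome 10 (38965515 to 39110188, plus strand). It had 40.7, 53.1 and 50.7 CPM in WT PBS, 68.3, 159 and 108 in WT BLM, 41.1, 78.6 and 111 in KO PBS, and 66.8, 72.5 and 75.5 in KO BLM. WT BLM mouse 146 was highest of all 12. Lama4 rose in WT skin by 1.216 ± 0.353 (adjusted p = 0.0271), and without mouse 146 the difference was 0.88 (adjusted p = 0.0923). In KO skin the difference was −0.10 ± 0.35 (adjusted p = 0.891).

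Lama2, the α chain of muscle and nerve laminin-211, lies on the minus strand of chromosome 10 (26980036 to 27619758). It read 38.8, 49.2 and 51.4 CPM in WT PBS, 52.9, 85.4 and 52.6 in WT BLM, 32.1, 76.4 and 92.7 in KO PBS, and 44.9, 52.2 and 39.97 in KO BLM. The WT groups were just apart, by 1.2 CPM, and the difference of 0.45 ± 0.34 did not pass (adjusted p = 0.306). The KO BLM mice all read below the WT BLM mice, by 0.45 CPM at the closest, and there too the difference did not pass (−0.48 ± 0.34, adjusted p = 0.465).

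The chains that these trimers share had the smallest fitted differences of the 9 genes in WT skin. Lamb1 (chromosome 12, 31265234 to 31329644, plus strand) had 177, 221.5 and 216 CPM in WT PBS, 132, 261.5 and 216 in WT BLM, 194, 96.8 and 151 in KO PBS, and 182, 152 and 157 in KO BLM. The WT BLM mice lay on both sides of the WT PBS range, with a fitted difference of −0.01 and a 95% interval from −0.62 to 0.60. Lamc1 (chromosome 1, 153218922 to 153332786, minus strand) had 173, 208 and 232 CPM in WT PBS, 215, 318 and 259 in WT BLM, 144, 216 and 218 in KO PBS, and 216, 176 and 178.5 in KO BLM. Its difference was 0.37 ± 0.20 in WT (adjusted p = 0.175) and −0.02 ± 0.20 in KO skin (adjusted p = 0.968).

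The make-up of the α chains in each mouse follows from these values. Lama5 made up 67.8%, 65.0% and 61.9% of the RNA of the 5 α chains (in RPKM) in the WT PBS mice, and 44.0%, 32.8% and 34.4% in the WT BLM mice. It was 58.9% in KO PBS mouse 136 but 37.8% and 30.4% in the other KO PBS mice, and 51.4%, 37.0% and 37.4% in the KO BLM mice. The mean share of Lama4 was 10.7% ± 1.08 in WT PBS and 26.2% ± 9.37 in WT BLM (SD, n = 3), and that of Lama3 16.0% ± 1.46 and 24.2% ± 5.34. With the longest transcript as the length, the mean share of Lama5 was 55.8% ± 3.27 in WT PBS and 28.0% ± 6.90 in WT BLM, so its size depends on the length and its direction did not. These shares are given as a description and were not tested.

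**Figure D2:**
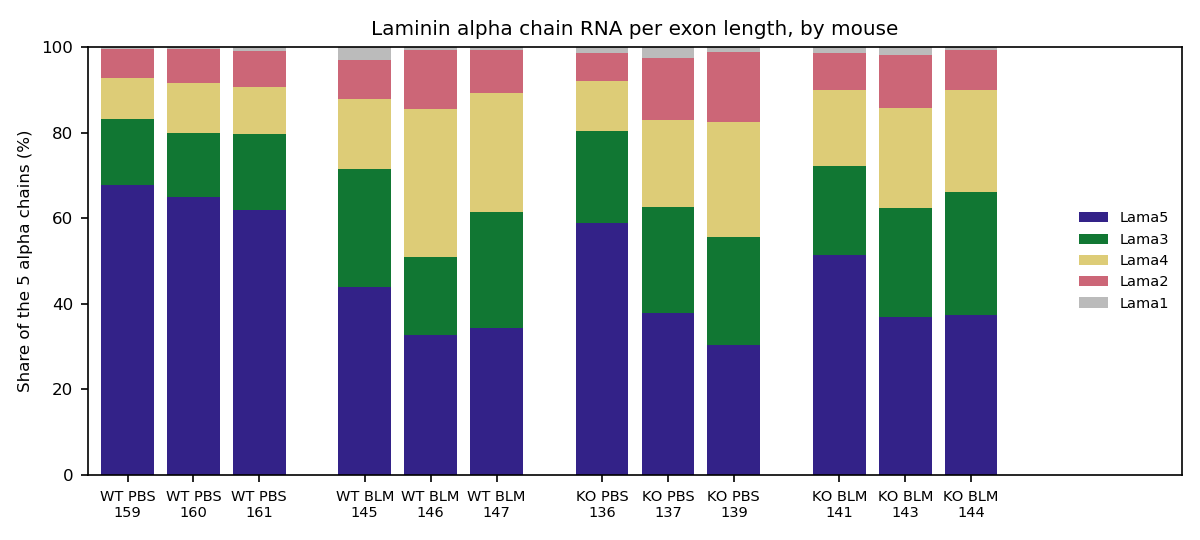
Share of each of the 5 laminin α chains in their summed RPKM, 1 bar for each mouse. Lama5 holds more than 50% of the bar in the 3 WT PBS mice, KO PBS mouse 136 and KO BLM mouse 141, and less in the other 7 mice. With the longest transcript as the length, its share was 50.4% in mouse 136 and 41.4% in mouse 141.

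Among the β chains Lamb1 held 39.9% ± 3.03 of the RPKM of Lamb1, Lamb2 and Lamb3 in WT PBS and 27.3% ± 8.19 in WT BLM, while Lamb3 held 21.4% ± 2.60 and 32.6% ± 11.6. In WT BLM mouse 146 Lamb3 held 20.1%, within the WT PBS range of 18.5% to 23.4%. In KO PBS and KO BLM, Lamb1 held 24.2% ± 13.2 and 28.4% ± 4.33, and Lamb3 32.4% ± 7.50 and 34.95% ± 5.12. By the longest transcript Lamb3 held 20.9% ± 2.48 in WT PBS and 33.1% ± 12.2 in WT BLM. These shares were not tested either.

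Bleomycin in KO skin was the next comparison. None of the 9 genes passed (0.306% of all genes did), none had an unadjusted p under 0.05 (3665 of all 18311 genes did), and the KO groups overlapped for each of the 9, where 19.3% of all genes did not overlap. DESeq2 also called none of them, beside 6.14% of all genes in that setting. Without mice 136 and 141, 2 of the 9 passed, Col7a1 as above and Lama2, which fell by 0.88 (adjusted p = 0.0412), beside 22.3% of all genes. Without mouse 136 alone, Lama2 was the only 1 of the 9 to pass, at −0.89 (adjusted p = 0.0323). In that setting 2632 of 18739 genes passed.

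Under PBS, KO and WT skin did not differ past the threshold in any of the 9 genes (0.0655% of all genes did), and 5 had an unadjusted p under 0.05, beside 20.4% of all genes. Lama5 and Col17a1, 2 of the 9, were without overlap between the groups, beside 18.9% of all genes. Col17a1 was higher in KO PBS by 0.997 ± 0.349 (adjusted p = 0.208), Lamb3 by 1.01 ± 0.33 (adjusted p = 0.205) and Col7a1 by 1.37 ± 0.52 (adjusted p = 0.218). The result turned on mouse 136: without it, 7 of the 9 genes passed, beside 36.7% of all genes. These were Col7a1 (1.73), Lamb3 (1.30), Col17a1 (1.27), Lama4 (0.98), Lama2 (0.86) and Lama3 (0.49), all higher in KO PBS, and Lama5 (−1.09), which was lower, with adjusted p from 0.00522 to 0.0307. The hair gene list mean was −0.35 and 2.43 log2 CPM in KO PBS mice 137 and 139, and 9.94 to 10.5 in WT PBS mice. Genotype and hair growth therefore cannot be told apart without mouse 136. With the list mean in the model, 0 of the 9 genes passed under PBS, beside 0.0546% of all genes.

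Under bleomycin none of the 9 genes passed between the genotypes (0.0928% of all genes did), and 1, Lamc1, had an unadjusted p under 0.05 (−0.47 ± 0.21, adjusted p = 0.292), beside 16.6% of all genes. Lama2 alone had groups without overlap, beside 27.5% of all genes. The hair gene list mean was 5.60 to 9.48 log2 CPM in KO BLM mice and 0.04 to 3.94 in WT BLM mice, without overlap. Genotype and hair growth therefore cannot be told apart under bleomycin either. With the list mean in the model, 0 of the 9 genes passed, beside 0.137% of all genes. No alternative tried brought any of the 9 past the threshold here.

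The difference between the responses to bleomycin was tested in the same model. It passed for none of the 9 genes and for 0% of all genes, with 4 of the 9, and 31.1% of all genes, at an unadjusted p under 0.05. The largest was that of Col17a1 (−1.45 ± 0.49, adjusted p = 0.0988), followed by Col7a1 (−1.34 ± 0.72, adjusted p = 0.223) and Lama4 (−1.32 ± 0.49, adjusted p = 0.114). Without mouse 136, 6 of the 9 passed, beside 39.9% of all genes. Those 6 were Col17a1 (−1.71), Lama4 (−1.62), Lamb3 (−1.54), Lama2 (−1.34), Lama5 (0.96) and Lama3 (−0.78), with adjusted p from 0.00706 to 0.0340. Without that mouse, every WT PBS mouse and no KO PBS mouse had a high mean of the hair gene list. Hair growth therefore cannot be told apart from the difference of responses there. With all mice, every WT PBS mouse and no WT BLM mouse had a high list mean. The WT part of the difference thus cannot be told apart from hair growth either. With the list mean in the model, 0 of the 9 genes and 0% of all genes passed. These comparisons share groups of mice, so their values for a gene are not independent of each other.

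**Figure D3:**
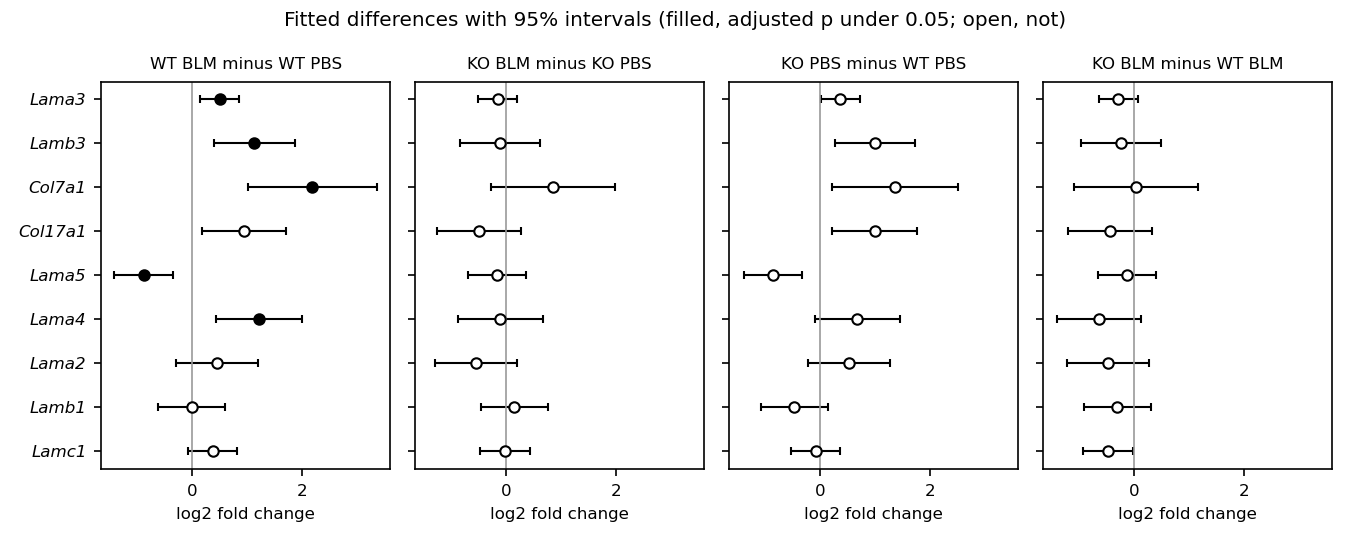
Fitted log2 fold changes of the 9 genes in the 4 comparisons between groups, with 95% intervals as bars. Filled points, 5 in WT BLM minus WT PBS and none elsewhere, passed the adjusted threshold of 0.05.

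The growing-hair list moved with several of these genes. All of its 20 genes measured had negative fitted differences after bleomycin in WT skin. Called lower were 10 of them, beside 14.1% of all genes. Its summed level ran from 49480 to 71660 CPM in WT PBS mice and from 82.0 to 868 in WT BLM mice. In KO PBS mice it ran from 74.9 to 78790 and in KO BLM mice from 3761 to 37790. In the 5 mice with a list mean of at least 9 log2 CPM, Col7a1 ran from 76.5 to 147 CPM, and in the other 7 from 281 to 663. Lama5 ran from 184.5 to 282 CPM in those 5 mice and from 108 to 175.6 in the other 7. Lama4 ran from 40.7 to 66.8 and from 68.3 to 159 CPM, without overlap. Lamb3 (66.7 to 106 and 100.2 to 202.5), Lama3 (58.8 to 71.6 and 69.99 to 103.6) and Col17a1 (794.5 to 1095 and 941 to 2357) overlapped at the edges. Lamc1 (144 to 232 and 176 to 318), Lamb1 (177 to 221.5 and 96.8 to 261.5) and Lama2 (32.1 to 51.4 and 39.97 to 92.7) overlapped more widely. With the list mean in the model none of the 9 genes passed in WT skin, beside 0.0765% of all genes. Col7a1 was 0.60 ± 0.52 there and Lama5 −0.34 ± 0.30. In KO skin Col7a1 passed with the list mean in the model (1.46, adjusted p = 0.0376), beside 9.12% of all genes. Since every WT PBS mouse and no WT BLM mouse had a high list, hair growth and bleomycin cannot be told apart in WT skin.

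**Figure D4:**
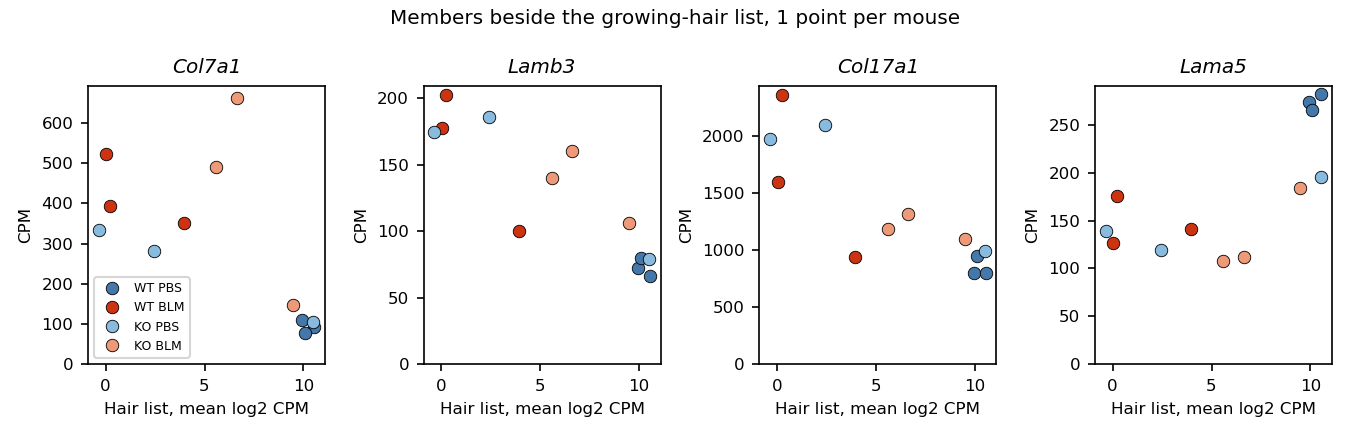
CPM of Col7a1, Lamb3, Col17a1 and Lama5 against the mean log2 CPM of the growing-hair list, 1 point for each of the 12 mice, coloured by group. The 5 mice on the right are the lowest for Col7a1 and the highest for Lama5.

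Markers of other cells that make these laminins were also followed in WT skin, where 19.8% of all genes were called higher and 14.1% lower. Of 10 skeletal muscle markers 9 were called higher, with summed levels of 5991 to 6763 CPM in WT PBS mice and 20460 to 41860 in WT BLM mice, beside 7754 to 32380 in KO PBS mice and 12330 to 22920 in KO BLM mice. Of 10 endothelial markers 5 were called higher (261.9 to 289, 277 to 714, 243 to 482 and 382 to 424 CPM in the same order of groups). Of 7 Schwann cell markers 2 were called higher (229 to 263, 219 to 664, 222 to 549.6 and 240.0 to 351 CPM). Macrophage markers were called higher in 7 of 8 and fibroblast markers in 4 of 8. Of the markers of mural cells 1 of 6, of injured keratinocytes 3 of 5 and of fat cells 0 of 8 were called higher. None of these markers was at 0 in all mice of a group. WT BLM mouse 146, the highest for Lama4, Lamb1 and Lamc1, was also the highest for the endothelial (5.79 mean log2 CPM), Schwann (5.89) and fibroblast lists (10.2) and the lowest for the basal keratinocyte list (8.48). The part of these cells in the values of the laminins was not tested. Of the 7 basal keratinocyte markers 0 were called higher and 1 lower in WT skin, beside the same shares of all genes.

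The proteins that hold keratinocytes to laminin-332 were followed in a list of 8 hemidesmosome and attachment genes, of which 7 passed in WT skin, 4 higher and 3 lower, beside 34.0% of all genes. Dst, which encodes the plakin that links keratin filaments to the hemidesmosome, rose by 1.25 ± 0.35 (adjusted p = 0.0250), and Plec, the other plakin of this junction, by 0.77 ± 0.22 (adjusted p = 0.0250). Lad1 fell by 1.10 (SE 0.34, adjusted p = 0.0341) and Fermt1, which encodes the integrin activator kindlin-1, by 0.78 (SE 0.19, adjusted p = 0.0151). The laminin-332 receptor subunits Itgb4 (0.66) and Itga6 (0.57) were also called higher, and Itga3 (−0.72) lower. The list thus did not move in a single direction, and its median was 0.42. No gene of it passed in the other comparisons.

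Among other laminin chains, Lamc3 fell in WT skin from 23.1 ± 5.70 to 5.81 ± 2.59 CPM (SD, n = 3), by 1.99 on the log2 scale (SE 0.38, adjusted p = 0.00714). Lamb2, a β chain of vessels, nerve and muscle, differed by 0.58 ± 0.21 (adjusted p = 0.0553), and Lama1, low in all groups at 2.48 ± 0.838 CPM in WT PBS, by 1.02 ± 0.61 (adjusted p = 0.208). Of 21 other basement membrane genes 6 passed in WT skin, beside 34.0% of all genes. Npnt, a ligand of integrin α8β1, rose by 1.49 ± 0.37 (adjusted p = 0.0169) and Hspg2, which encodes perlecan, by 1.15 ± 0.17 (adjusted p = 0.00404), and Nid2 was the third. Egfl6, made in the upper hair follicle, fell by 1.86 (SE 0.50, adjusted p = 0.0208) and the collagen IV chain Col4a4 by 1.76 (SE 0.41, adjusted p = 0.0135), with Fras1 as the third. The main collagen IV chains Col4a1 (0.03 ± 0.33, adjusted p = 0.947) and Col4a2 (0.02 ± 0.29, adjusted p = 0.967) did not pass. The list's median was 0.03, beside 0.02 for all genes.

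**Figure D5:**
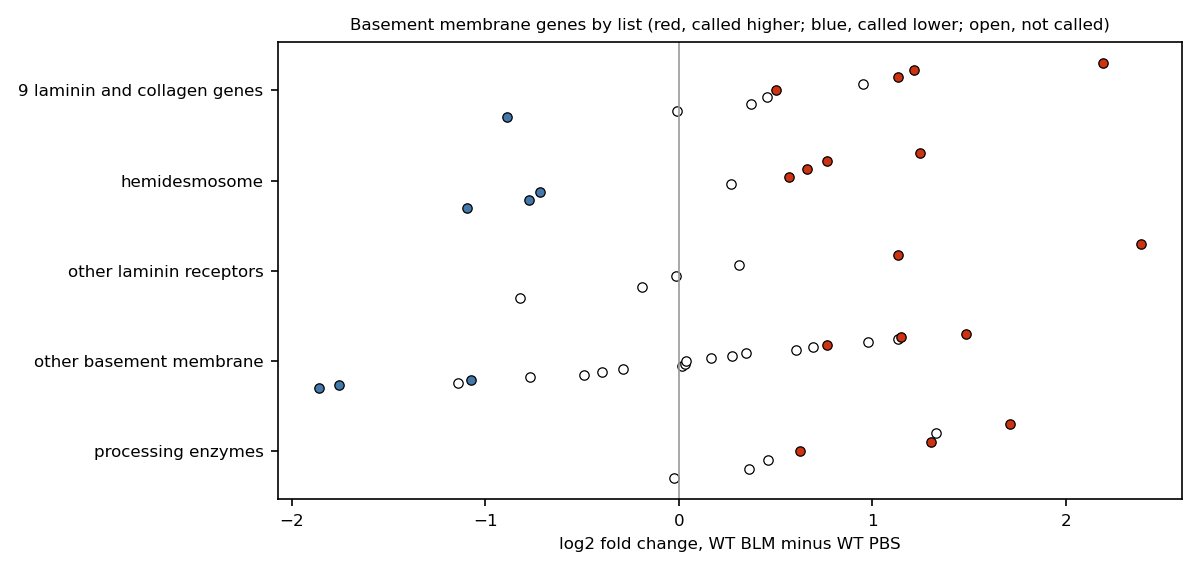
Fitted log2 fold changes in WT BLM minus WT PBS for the 9 genes and for 4 lists of other basement membrane genes, 1 point for each gene. Called genes lie on both sides of 0 among the 9 genes, in the hemidesmosome list and in the list of other basement membrane genes.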

How the data were processed

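Skin RNA of 12 mice was measured by RNA-Seq. The authors prepared stranded mRNA libraries, sequenced read pairs and deposited whole-number read counts per gene without normalization. The submitters' processing notes name the genome build GRCm38.p6 and MultiQC 1.7. The aligner, the counting tool and the annotation are not given in the sources used here. The authors tested with DESeq2.

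Here 18311 of the 34689 genes with a count passed edgeR's filterByExpr (minimum count 10, minimum total 15). TMM factors scaled the counts, and the quasi-likelihood test of edgeR 4.0.16 (R 4.3.3) was run with 4 group means, where the tool of the methods is an alternative (DESeq2 1.42.0). Every p is Benjamini-Hochberg adjusted over all genes tested, with a threshold of 0.05, unless called unadjusted. Fold changes are on the log2 scale with an SE, log2 CPM uses a prior count of 2, and intervals are 95%. The biological coefficient of variation was 34.9%, and depth per mouse had a median of 31494965 counts. Replicates are mice, and the labels name no litter or batch, so p-values measure the spread between these mice. The methods describe the control mice as littermates, but no label links a numbered mouse to a litter, so none could be paired.

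The 9 genes, the lists, the alternatives and the rule on which genes to name were chosen with earlier results of these data known. The rule names all 9 genes, the other laminin chains, up to 2 genes with the largest rise and 2 with the largest fall past the threshold in each companion list, and the 3 genes nearest in pattern to each. Other companion genes (Itgb4, Itga6, Itga3, Nid2, Fras1, Col4a1, Col4a2 and Adam17) were named after their values were seen. A result on 1 further gene is not reported here. Nearness was the root mean square difference of log2 CPM, centred on each gene's mean, over 12 mice. Exon lengths and positions came from GENCODE M21 (GRCm38) and promoters from RefSeq (GRCm38.p6), which matched 6 of the 9 genes. The fit was tested on simulated data. Plots used Python 3.11.15 with matplotlib 3.10.9.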

Additional observations from a re-analysis of the deposited data

Results flagged for a closer look

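For 4 of the 9 genes every WT BLM mouse read above the WT PBS mean while every KO BLM mouse read below the KO PBS mean. How many of all genes did so was not counted. The fitted difference between the responses (KO minus WT, log2) was −1.01 for Lama2, −0.65 for Lama3, −1.32 for Lama4 and −1.45 for Col17a1. None of these passed in edgeR's test of the difference itself (adjusted p = 0.175, 0.103, 0.114 and 0.0988 in that order). Col17a1 passed with DESeq2 (−1.45, adjusted p = 0.0291), beside 18.5% of all genes. All 4 passed without KO PBS mouse 136, beside 39.9% of all genes. That mouse read lower than the other KO PBS mice, and lower than every KO BLM mouse, for each of the 4 genes. It carried the growing-hair list at 10.5 mean log2 CPM. The list mean was −0.35 and 2.43 in KO PBS mice 137 and 139, and 9.94 to 10.5 in WT PBS mice. Without mouse 136, hair growth therefore cannot be told apart from the difference of responses. With all mice it still cannot be told apart from the WT response, since no WT BLM mouse had a high list. With the list mean in the model the difference of responses was −0.054 for Lama2, −0.098 for Lama3, −0.674 for Lama4 and 0.032 for Col17a1. None of them passed, beside 0% of all genes.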

How the results depend on the processing

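The share of all genes called in the same setting stands in parentheses. In WT skin the count of 5 of 9 genes (34.0%) was 5 with RLE (34.6%) or upper-quartile factors (34.3%), with genes of at least 1 CPM (36.4%) and with only the groups compared (44.6%). It was 4 without a filter (15.5%), 6 with DESeq2 (34.2%), 6 without mice 136 and 141 (49.0%) and 0 with the growing-hair list as a covariate (0.0765%). Leaving out 1 mouse gave 0 to 6: 0 without WT PBS mouse 160 (13.9%), 1 without WT PBS mouse 159 (2626 of 18725 genes) or 161 (18.1%) or WT BLM mouse 147 (17.6%), and 3 without WT BLM mouse 145 (21.5%). In KO skin the count of 0 became 1 with the covariate (9.12%) and 2 without both mice (22.3%), and ran from 0 to 1 over single mice. KO PBS against WT PBS gave 1 with DESeq2 (3.83%), 7 without both mice (40.9%) and 0 to 7 over single mice. The difference of responses gave 1 with DESeq2 (18.5%), 7 without both mice (38.6%) and 0 to 6 over single mice. KO BLM against WT BLM stayed at 0, also with DESeq2 (3.34%), without mouse 136 (6.89%) and without both mice (4.36%). Without mouse 136, alone or with mouse 141, every WT PBS mouse and no KO PBS mouse had a high growing-hair list. In those settings hair growth cannot be told apart from genotype under PBS or from the difference of responses. With all mice it cannot be told apart from bleomycin in WT skin, a part of the difference of responses, or from genotype under bleomycin.

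With the covariate the log2 differences in WT skin were −0.18 for Lama2, 0.75 for Lamb1, −0.081 for Lamb3 and −0.11 for Col17a1. In KO skin they were 0.11 for Lama4, −0.078 for Lamb1, 0.36 for Lamb3 and 0.063 for Lamc1. Between genotypes under PBS they were −0.017 for Lama2 and 0.014 for Lamb1, and under bleomycin 0.57 for Lamb3 and 0.28 for Col17a1. The differences of responses were −0.012 for Lama5, −0.83 for Lamb1, 0.45 for Lamb3, 0.86 for Col7a1 and 0.032 for Col17a1. Lamb1 in WT skin was 0.019 with upper-quartile factors and 0.013 with genes of at least 1 CPM, and Lamc1 under PBS was 0.087 without both mice. Over single mice left out, Lamb1 ran from −0.23 to 0.22 in WT skin. In KO skin Lama4 ran from −0.41 to 0.26, Lama5 from −0.45 to 0.067, Lamb1 from −0.081 to 0.40, Lamb3 from −0.41 to 0.096 and Lamc1 from −0.19 to 0.076. Lamc1 under PBS ran from −0.18 to 0.087, under bleomycin Lama5 from −0.39 to 0.013 and Col7a1 from −0.41 to 0.48, and the Lamb1 difference of responses from −0.07 to 0.41. The covariate was higher in every WT PBS mouse and in every KO BLM mouse than in every WT BLM mouse. The cause of these changes was not tested. No paired analysis was possible because no label links a mouse to a litter.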

Other observations

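Laminin-332 and its neighbours are trimmed after secretion, and collagen XVII is shed from the cell surface, by proteases of which 7 were listed. In WT skin 3 of them were called higher after bleomycin and 0 lower, beside 34.0% of all genes called in either direction. Mmp14, a membrane-bound metalloproteinase, rose by 1.71 ± 0.52 on the log2 scale (adjusted p = 0.0320) and Tll1, a relative of Bmp1, by 1.31 ± 0.34 (adjusted p = 0.0188). Adam17, a sheddase, was the third (0.62 ± 0.14, adjusted p = 0.0128). Of 6 other laminin receptor genes 2 were called in WT skin, both higher, beside the same 34.0% of all genes. They were Itga7 (2.39 ± 0.25, adjusted p = 0.00215), the α chain of the muscle receptor for laminin-211, and Itgb1 (1.13 ± 0.18, adjusted p = 0.00439), the shared β1 subunit. No gene of either list passed in another comparison. The skeletal muscle list moved with Itga7, as given above, and its part was not tested.

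The genes nearest in pattern to each of the 9 were found over all 12 mice, as a description without a test. For Lama3 these were Clip1, Itga6 and Chst15, whose centred log2 CPM lay within 0.061, 0.072 and 0.080 (root mean square) of it. For Lamb3 they were Cyp2j6, Ahnak2 and Igfbp3 (0.136, 0.148 and 0.148) and for Col17a1 Ahnak2, Mesp2 and Slc24a3 (0.115, 0.153 and 0.160). Among the 9 genes themselves, Lamb3 and Col17a1 were the closest pair (0.201) and Lama5 and Col7a1 the farthest apart (1.51). Lama4 was nearest to Zbed3, Fam171a1 and Epb41l2 (0.154, 0.162 and 0.174), Lama2 to Tmlhe, Tshz2 and Anks6 (0.117, 0.157 and 0.160), and Lama5 to Xpo4, Grtp1 and Ttll4 (0.123, 0.164 and 0.169). Lamb1 was nearest to Runx2, Stk36 and Dcbld2 (0.163, 0.192 and 0.203) and Lamc1 to Tacc1, Snap23 and Mdfic (0.126, 0.127 and 0.133). Col7a1, whose own SD over the mice was 1.06, was nearest to Cxcl16, Zmynd15 and Megf6 (0.345, 0.347 and 0.351), while the SD of the other 8 genes ran from 0.245 (Lama3) to 0.567 (Lama4 and Lamb3).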
